A study of Mus musculus with 4 samples.

Results

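The genes described here encode parts of the basement membrane. They are the type IV collagen chains Col4a1, Col4a2, Col4a5 and Col4a6, the collagens Col15a1 and Col18a1, the nidogens Nid1 and Nid2, and the laminin chains Lama4 and Lamb1. They were chosen by name as 10 of the 27998 genes counted in 4 single-cell libraries of the embryonic mouse thymus, and all 10 were found by symbol. The list was selected on levels already seen in these libraries, so every level and ratio is given as a description and none was tested.

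A basement membrane is a thin sheet of matrix that lies under epithelia and around vessels, and pericytes share 1 such sheet with the endothelial tube that they cover. Laminins, which are trimers of an alpha, a beta and a gamma chain, assemble at the cell surface, type IV collagen trimers form a cross-linked network over them, and nidogens bridge both. The chains of Col4a1 and Col4a2 combine in the common type IV trimer, those of Col4a5 and Col4a6 in rarer ones, and collagens XV and XVIII carry glycosaminoglycan chains and are found in the basement membranes of vessels and of epithelia. In the thymus such sheets separate the epithelium from the capsule, the septa and the vessels.

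Thymic lobes were taken at E13 to 13.5 from embryos of Tbx1+/neo2 intercrosses. Their dams had been injected intraperitoneally on embryonic days 8, 9 and 10. There was 1 library for each of 4 groups, namely Tbx1+/+ embryos with carrier (5% ETOH in PBS), Tbx1neo2/neo2 embryos with carrier, Tbx1neo2/neo2 embryos with minoxidil (200 µl at 0.55 mg/ml) and Tbx1neo2/neo2 embryos with PGE2 (90 µl at 3.6 ng/µl). The neo2 allele, made by insertion of a neomycin resistance cassette into an intron, is a hypomorph of Tbx1 and not a null, and no drug was given to Tbx1+/+ embryos in these libraries. The lobes were digested with trypsin and not sorted. With 1 library per group there is no spread between embryos, and the intervals below, exact Poisson intervals at 95%, cover counting error only.

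In the order of the groups above, which is kept throughout, 11474, 10683, 3201 and 4152 cells passed the filters, with medians of 21125, 14108, 41084 and 34790 UMIs per cell. Libraries shared 4 to 32 cell barcodes, at most 0.482% of the smaller library. Tbx1, the targeted gene, stood at 1.94, 2.33, 2.46 and 1.14 counts-per-million (CPM) over all kept cells outside the parathyroid-like cluster, and at 11.7, 16.9, 19.95 and 24.9 in endothelial-like cells, where it was highest of the 4 main classes, so it was not lower in all Tbx1neo2/neo2 libraries. The cassette is an insertion, and these counts do not say from which part of the transcript a UMI came, so the Tbx1 level does not check the genotypes, which are those of the labels. By Xist and Y-linked UMIs, 2192 cells were called XX and 4759 XY in the Tbx1+/+ carrier library, 877 and 5430 in the Tbx1neo2/neo2 carrier library, 2706 and 1 in the minoxidil library, and 1 and 2902 in the PGE2 library. The minoxidil cells were thus nearly all XX and the PGE2 cells nearly all XY, while both carrier libraries mixed the sexes and so came from more than 1 embryo each.

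The level of a gene is the sum of its UMIs over the cells of a class in a library, scaled to CPM of that class. Classes were clusters of the integrated cells named from marker genes, and none of the 10 genes took part in the clustering. Pericyte-like cells numbered 864, 290, 252 and 230, fibroblast-like cells 486, 2379, 184 and 172, endothelial-like cells 201, 244, 97 and 99 and epithelial-like cells 3438, 1292, 978 and 1256. Summed pericyte markers in the pericyte-like cells came to 1249, 1281, 1345 and 1469 CPM, summed endothelial markers in the endothelial-like cells to 2607, 2539, 2621 and 2443 and summed epithelial markers in the epithelial-like cells to 4892, 3800.2, 4641 and 4690.2, each within 1.5-fold across the 4 libraries.

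The fibroblast-like class differed more. Its summed fibroblast markers were 5694, 2539.9, 6513 and 6098 CPM, and Dcn, a proteoglycan gene and a fibroblast marker, stood at 3096, 843, 3949 and 3620.4. Of its Tbx1neo2/neo2 carrier cells with a sex call, 15 were XX and 1624 XY, against 131 and 223 in the Tbx1+/+ carrier library. The 31 Hox genes of paralog groups 4 and up, which are transcribed in tissue posterior to the head, summed to 153, 522, 214 and 285 CPM in it, and Hoxc6 to 0.138, 49.99, 0 and 4.77. In the same order, pericyte-like cells held 35.9, 129, 39.4 and 40.04 CPM of these Hox genes. The Tbx1neo2/neo2 carrier pericyte-like cells, 92 XX and 85 XY, did not share the skew in sex. Genotype, embryo of origin and tissue of origin cannot be told apart in the Tbx1neo2/neo2 carrier fibroblast-like cells, and the results of the members in them are therefore given again below with other choices of cells.

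Both type IV pairs lie head to head in the genome. In GRCm38, Col4a1 (ENSMUSG00000031502) occupies chr8:11198423-11312826 on the minus strand and Col4a2 (ENSMUSG00000031503) chr8:11312805-11449287 on the plus strand, so that their 5′ ends overlap by 22 bases. Col4a6 (ENSMUSG00000031273), at chrX:141165403-141474076 on the minus strand, and Col4a5 (ENSMUSG00000031274), at chrX:141475385-141689234 on the plus strand, start 1308 bases apart. The other members lie alone, Col15a1 on chromosome 4, Col18a1 and Lama4 on chromosome 10, Nid1 on chromosome 13, Nid2 on chromosome 14 and Lamb1 on chromosome 12. In the last 1000 bases of the 10 genes, the only exon of another gene was that of Rtraf, on the other strand of the Nid2 end.

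The shared start of Col4a1 and Col4a2 is shown because the levels of this pair ran most alike, and the stretches before Nid1 and Col4a5 because these genes had the clearest differences in fibroblast-like cells. All 3 are from the RefSeq annotation on GRCm38.p6, plus strand, 5′ to 3′. Capitals mark a GC box, GGGCGG or its reverse complement CCGCCC, or a CCAAT box, CCAAT or its reverse complement ATTGG.
Col4a1 and Col4a2, chr8:11312801-11312830: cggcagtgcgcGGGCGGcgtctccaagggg
Nid1, chr13:13437352-13437550: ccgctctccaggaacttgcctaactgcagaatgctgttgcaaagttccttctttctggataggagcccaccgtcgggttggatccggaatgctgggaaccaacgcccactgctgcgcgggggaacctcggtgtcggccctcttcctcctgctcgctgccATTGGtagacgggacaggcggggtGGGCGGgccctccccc
Col4a5, chrX:141475169-141475369: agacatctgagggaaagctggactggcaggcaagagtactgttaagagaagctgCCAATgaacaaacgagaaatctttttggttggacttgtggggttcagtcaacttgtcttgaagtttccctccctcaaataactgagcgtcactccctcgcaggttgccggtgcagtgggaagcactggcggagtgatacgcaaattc
Among 32851 RefSeq windows of 300 bases, 250 before to 50 after a gene start, 35.7% held a GC box, 37.4% a CCAAT box and 13.6% a TATA box (TATAAA or TTTATA) on either strand. Windows were given for 8 members, 9 in all. Of these, 7 held a GC box, 6 a CCAAT box and 0 a TATA box. A match is a description of the letters and not of binding.

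Col4a1 and Col4a2, the common type IV chains, were highest in endothelial-like cells in each library. Col4a1 stood at 1073, 1395, 988 and 1072 CPM there, at 449, 439.9, 482 and 565 in pericyte-like, 113, 114, 117 and 117 in epithelial-like and 68.99, 76.8, 67.3 and 114 in fibroblast-like cells. The order endothelial, pericyte, epithelial, fibroblast held in all 4 libraries, and only the epithelial and fibroblast intervals of the PGE2 library overlapped. Col4a2 kept this order too, with 516, 642, 486 and 499 CPM in endothelial-like and 179, 196, 201 and 234 in pericyte-like cells. In epithelial-like cells, the highest Col4a1 level of the 4 libraries was 1.03 times the lowest, and for Col4a2 1.102 times. Hematopoietic cells, which should lack both, held 12.01, 11.2, 7.82 and 5.44 CPM of Col4a1, and erythroid cells 8.28, 4.02, 0.933 and 0.796. Macrophages, a part of the hematopoietic cells, held 46.3, 22.6, 31.6 and 23.6, so the background differed between classes.

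Col4a5 and Col4a6 followed another order. Col4a5 was highest in fibroblast-like cells in 3 libraries, with 52.5, 12.7, 69.5 and 71.6 CPM, and lowest in endothelial-like cells in all 4, with 4.62, 4.18, 7.27 and 10.8. In the Tbx1neo2/neo2 carrier library, the fibroblast-like level of 12.7 (11.6 to 13.98) overlapped both the epithelial-like level of 14.4 (13.3 to 15.7) and the pericyte-like level of 12.5 (9.52 to 16.2). Mesothelial-like cells, the thin outer lining, carried more Col4a5 than any other mesenchymal class, 95.7, 94.6, 99.5 and 84.1 CPM, and more Col4a6, 13.5, 9.23, 14.3 and 13.1. Col4a6 stood at 3.16, 3.22, 3.96 and 3.69 CPM in epithelial-like cells, against 0.272, 0.0685, 0.111 and 0.0546 in hematopoietic cells, and in pericyte-like cells it was near the limit of detection, with 11, 1, 5 and 2 UMIs in all. The parathyroid-like cells of the Tbx1+/+ carrier library, 86 cells, held 70.1 CPM of Col4a6 and 75.3 of Col4a5, whereas the cTEC-like cells of that library held 3.36 and 17.7.

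Col15a1 was found mainly in endothelial-like cells. It stood at 262, 306, 222 and 225 CPM in endothelial-like cells, which was 40.3, 35.4, 32.8 and 9.36 times the next class, and pericyte-like cells came next with 6.49, 8.65, 6.77 and 24.1, where the fibroblast-like interval overlapped theirs in the minoxidil library. Endothelial-like cells gave 76.3, 75.99, 74.1 and 59.9 percent of all Col15a1 UMIs. Col18a1, whose C-terminal fragment is known as endostatin, was also highest in endothelial-like cells, at 345, 378, 340.5 and 471 CPM, but epithelial-like cells followed with 102, 91.6, 104 and 92.4, then pericyte-like cells with 42.6, 38.5, 49.6 and 42.4 and fibroblast-like cells with 19.5, 8.64, 15.3 and 11.1. This order held in all 4 libraries with no overlap of neighbouring intervals. Hematopoietic cells carried 28.7, 25.2, 37.6 and 17.6 CPM of Col18a1 and erythroid cells 1.34, 0.502, 1.87 and 0.796, so the hematopoietic level was not shared by another class that should lack the gene. The large innate-like cluster, led by Gzma and Cd3g, held 29.8, 28.9, 39.7 and 18.7 CPM and macrophages 21.03, 8.29, 12.7 and 3.17.

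The nidogens split by class. Nid1 was highest in fibroblast-like cells, with 331, 142, 322 and 344 CPM, then in pericyte-like cells with 147, 137, 146 and 145 and endothelial-like cells with 111, 127, 127 and 111, and this order held in all 4 libraries. In the Tbx1neo2/neo2 carrier library alone, the pericyte-like interval overlapped both its neighbours. Epithelial-like cells held 3.59, 6.32, 1.08 and 1.23, which was below the hematopoietic level of 5.95, 9.08, 3.55 and 2.87 in each library, so it is read as background. Nid2 was highest of the 4 classes in pericyte-like cells in each library, with 122, 122, 139 and 137, although the endothelial-like interval overlapped it in the Tbx1neo2/neo2 carrier library, and mesothelial-like cells held still more, 148, 195, 174 and 166. Epithelial-like cells held 12.1, 11.9, 9.89 and 7.02 CPM of Nid2 and hematopoietic cells 5.604, 7.95, 4.29 and 2.33.

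The laminin chains differed in how widely they were found. Lama4, the alpha chain typical of vessels and mesenchyme, stood at 149, 179, 150.3 and 195 CPM in endothelial-like, 81.3, 53.6, 84.7 and 108 in fibroblast-like, 53.6, 53.2, 58.8 and 69.5 in pericyte-like and 6.83, 8.16, 6.76 and 6.37 in epithelial-like cells, in that order in all 4 libraries, with overlap of the middle pair in the Tbx1neo2/neo2 carrier library. Lamb1, a beta chain of many laminins, was the most even member. Its endothelial-like level, 148, 164, 144 and 152, was only 1.85, 1.83, 1.9 and 1.58 times its lowest level among the 4 classes, and epithelial-like cells held 113, 110.2, 113 and 99.2. Epithelial-like cells gave 56.96, 30.4, 62.6 and 64.03 percent of all Lamb1 UMIs.

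**Figure D1:**
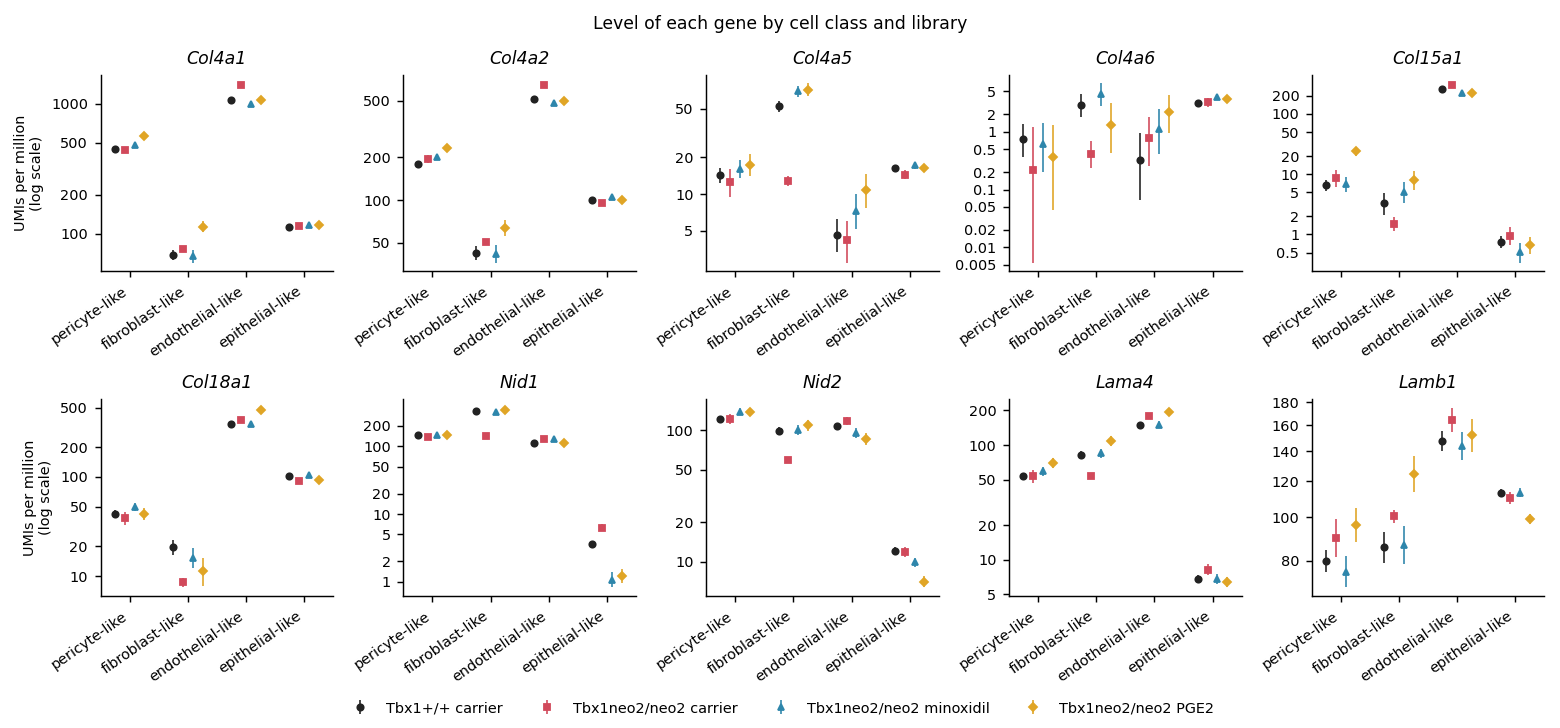
Levels of the 10 genes in CPM (log axis) by cell class and library, each point a library and each bar its exact Poisson 95% interval. Col4a1, Col4a2 and Col15a1 sit highest in endothelial-like cells and Nid1 in fibroblast-like cells, where the Tbx1neo2/neo2 carrier point for Nid1 lies at 142 against 322 to 344 in the others.

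The first comparison set Tbx1neo2/neo2 carrier against Tbx1+/+ carrier embryos and asks how these libraries differ. With 1 library per group, an effect of the allele cannot be told apart from embryo of origin. A gene counted as higher or lower when its levels were 1.5-fold or more apart and their intervals were separate, and only genes with a sum of 20 UMIs or more over both libraries were counted. In pericyte-like cells, 0 of the 9 members counted were higher, where 1.93% of 12101 genes were, and 0 were lower, where 2.22% were. Col4a1 went from 449 (438 to 459.8) to 439.9 (421 to 459) CPM there, Nid1 from 147 (141 to 153) to 137 (126 to 148) and Nid2 from 122 (116 to 127) to 122 (112 to 133). Intervals of these 3 genes overlapped between the libraries. The median log2 ratio of the members was -0.013, against -0.040 over all genes. This depended on how the class was set. With classes set by the markers of each cell, pericyte-like cells numbered 159 with Tbx1+/+ carrier and 100 with Tbx1neo2/neo2 carrier. Col4a1, Col4a2, Col4a5, Col18a1, Nid1, Nid2, Lama4 and Lamb1 were then called as different in them.

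Endothelial-like and epithelial-like cells likewise showed few calls. In endothelial-like cells, 0 of 9 members were higher, where 4.07% of all genes were, and 0 were lower, where 3.62% were. The members nonetheless leaned upward, with a median log2 ratio of 0.20 against -0.023, and Col4a1, at 1073 (1052 to 1094) and 1395 (1367 to 1424) CPM, had intervals apart with a ratio of 0.38 (0.34 to 0.42), short of 1.5-fold. Doublets were called for 23 Tbx1+/+ carrier and 0 Tbx1neo2/neo2 carrier cells of this class, and the calling did not work in the latter library. Without doublets and cells with markers of another class by narrower lists, 114 and 186 cells, Col4a1 and Nid2 were called higher. With classes set by the markers of each cell, 34 and 29 cells, Col4a1, Col4a2, Col15a1 and Col18a1 were called. No share of all genes is given for these settings either. In epithelial-like cells, 1 of 10 members was higher, where 4.07% of genes were, and 0 were lower, where 3.55% were. The 1 was Nid1, at 3.59 (3.24 to 3.97) and 6.32 (5.56 to 7.15), the gene read above as background in this class. The mesenchymal markers in the epithelial-like cells moved with it, summing to 197, 499.8, 146 and 135 CPM. Without doublets and cells with markers of another class, the log2 ratio of Nid1 was -0.54.

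Fibroblast-like cells held most of the calls. Of the 10 members, 7 were lower, where 10.3% of 13937 genes were, and 0 were higher, where 7.51% were. Col4a5 was 52.5 (47.4 to 58.1) CPM in the Tbx1+/+ carrier and 12.7 (11.6 to 13.98) in the Tbx1neo2/neo2 carrier library, a log2 ratio of -2.04 (-2.24 to -1.84). Nid1, at 331 (318 to 345) and 142 (138 to 146), had a log2 ratio of -1.22 (-1.29 to -1.15). Both intervals were far apart, and the Tbx1neo2/neo2 carrier library was the lowest of the 4 for each gene. Nid2, Lama4, Col18a1, Col15a1 and Col4a6 were the others, with log2 ratios of -0.74, -0.60, -1.17, -1.14 and -2.79. The last rests on 21 and 15 UMIs, and Col15a1 and Col18a1 were not called once the hematopoietic level was subtracted. Col4a1, Col4a2 and Lamb1, the more widely found chains, were not called, with log2 ratios of 0.16, 0.26 and 0.23. Lama4 lay just past the 1.5-fold limit, and the nearest pair short of it in the 3 comparisons was Col4a1 in fibroblast-like cells of the PGE2 library, at 0.57.

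Minoxidil and PGE2 were each compared with the same Tbx1neo2/neo2 carrier library, so the 2 comparisons share their control and are not independent, and each asks how the drug-exposed embryos differ from the carrier ones. In fibroblast-like cells of the minoxidil library, 7 of 10 members were higher, where 11.1% of genes were, and 0 lower, where 7.14% were. In those of the PGE2 library, 5 were higher, where 9.96% of genes were, and 0 lower, where 6.03% were. Col4a5 reached 69.5 (62.3 to 77.3) CPM with minoxidil and 71.6 (63.3 to 80.7) with PGE2, log2 ratios of 2.45 and 2.49. Nid1 reached 322 (307 to 339) and 344 (325 to 363), log2 ratios of 1.18 and 1.27. Against the Tbx1+/+ carrier library, Nid1 had overlapping intervals in both drug libraries, and Col4a5 lay above its 52.5 (47.4 to 58.1) in both. Col15a1, Nid2 and Lama4 were higher in both drug libraries, with log2 ratios of 1.76, 0.77 and 0.66 for minoxidil and 2.40, 0.88 and 1.02 for PGE2. Col18a1 and Col4a6 passed for minoxidil, with 0.83 and 3.42, and not for PGE2, with 0.37 (-0.13 to 0.83) and 1.66 (-0.15 to 3.19). Both sets of ratios share the Tbx1neo2/neo2 carrier cells. Without integration, 6 of the 7 minoxidil calls and all 5 PGE2 calls were lost, with values below. Whether the drugs differ on these genes was not tested.

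Outside the fibroblast-like class, few members were called. More were called in pericyte-like and endothelial-like cells with classes set by the markers of each cell, and in endothelial-like cells with some other settings, as given at the end. In pericyte-like cells, 0 of 9 members were higher with minoxidil (2.27% of all genes) and 0 lower (2.03%), and with PGE2 1 was higher (1.9%) and 0 lower (2.41%). The 1 was Col15a1, which was 8.65 (6.18 to 11.8) CPM with carrier, 6.77 (5.101 to 8.81) with minoxidil and 24.1 (20.2 to 28.5) with PGE2, a log2 ratio of 1.48 (0.96 to 2.02). Its PGE2 level was also above the 6.49 (5.26 to 7.93) of the Tbx1+/+ carrier library. Endothelial markers in these cells summed to 20.6, 21.2, 18.6 and 27.5 CPM. In XY cells alone the log2 ratio was 1.36, and with classes set by the markers of each cell, which left 11 PGE2 cells, it was 0.53 and was not called. In endothelial-like cells, 0 of 9 were higher with minoxidil (4.77%) and 0 lower (4.03%), and with PGE2 1 was higher (5.45%), Col4a5 at 4.18 (2.75 to 6.08) and 10.8 (7.72 to 14.7), and 0 lower (4.9%). The members leaned downward there, with median log2 ratios of -0.25 for minoxidil and -0.19 for PGE2, against 0.022 and -0.0087 over all genes. Fibroblast markers in the endothelial-like cells summed to 231, 473, 352 and 446 CPM and their part in the Col4a5 value was not tested. The 6 smooth muscle markers summed to 109, 159, 806 and 974, but not as a set, since Acta2 stood at 3.12, 71.97, 3.73 and 5.405, Myh11 and Cnn1 were at 0 in both drug libraries, and 1 of the 6 was found in at least 10% of the PGE2 cells.

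In epithelial-like cells, the drug libraries were lower only for nidogens. With minoxidil 1 of 10 members was lower (5.06% of genes) and 0 higher (4.01%), and with PGE2 2 were lower (5.83%) and 0 higher (3.37%). Nid1 was the 1 with minoxidil, -2.55, and Nid1 and Nid2 those with PGE2, -2.37 and -0.76. Both calls depended on how background was handled. Without doublets and cells with markers of another class, Nid1 had log2 ratios of 0.081 and 0.14 for minoxidil and PGE2, and with the hematopoietic level subtracted Nid2 had 0.26 for PGE2. The 4 collagen and laminin genes with the highest epithelial levels, Col4a1, Col4a2, Col18a1 and Lamb1, had log2 ratios between -0.15 and 0.19 in both comparisons.

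**Figure D2:**
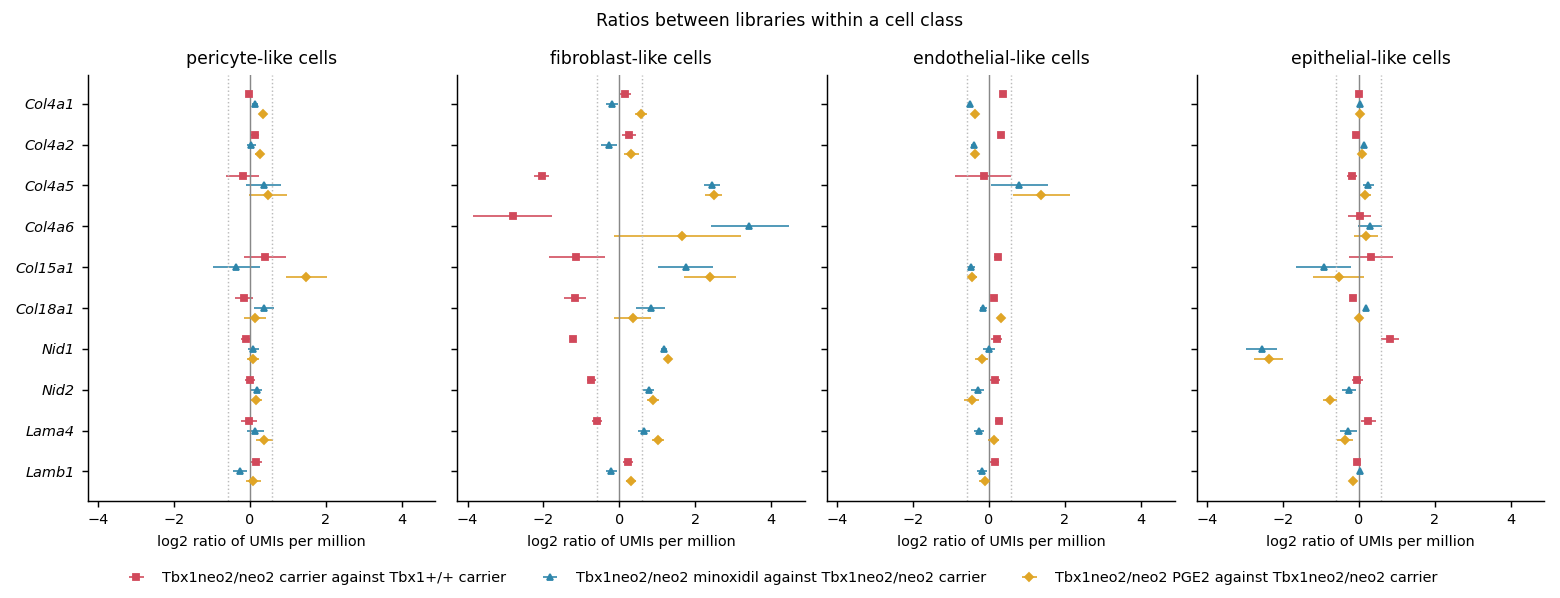
Log2 ratios of the 10 genes in the 4 cell classes for the 3 comparisons, each point a ratio, each bar its interval for counting error and the dotted lines 1.5-fold. Fibroblast-like cells stand out, with Col4a5 at -2.04 for Tbx1neo2/neo2 carrier against Tbx1+/+ carrier and 2.45 and 2.49 for minoxidil and PGE2 against Tbx1neo2/neo2 carrier, while in pericyte-like cells only Col15a1 in the PGE2 library, at 1.48, lies past a dotted line among the 9 genes with enough UMIs. Col4a6 is not drawn for pericyte-like and endothelial-like cells, where it had under 20 UMIs.

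The fibroblast-like result changed with the choice of cells. When the libraries were merged without integration, 92.5% of the Tbx1neo2/neo2 carrier cells of this class fell in an unnamed cluster of 3584 Tbx1neo2/neo2 carrier cells (3 XX, 2392 XY), which held 4, 1 and 11 cells of the other libraries. The fibroblast-like cluster then held 1189, 215, 473 and 414 cells. In it Col4a5 was 44.5 (41.4 to 47.8) CPM with Tbx1+/+ carrier and 48.2 (40.5 to 57.1) with Tbx1neo2/neo2 carrier, and Nid1 was 252 (245 to 260.0) and 244 (227 to 263). Nid2, at 114 (109 to 119) and 110.3 (98.4 to 123), and Lama4, at 57.4 (53.9 to 61.1) and 55.7 (47.3 to 65.1), also had overlapping intervals. Col18a1 was still apart, at 27.2 (24.8 to 29.8) and 11.4 (7.76 to 16.03), and was the only 1 of the 7 that stayed lower, whereas Col15a1 turned to 2.898 (2.15 to 3.82) and 6.74 (4.06 to 10.5). For the drug libraries, Col4a5 in this cluster was 64.8 (60.5 to 69.3) with minoxidil and 50.2 (45.9 to 54.8) with PGE2, and Nid1 239 (231 to 247) and 261 (252 to 272), none of them 1.5-fold from the Tbx1neo2/neo2 carrier level. Col18a1 stayed higher with minoxidil, at 32.6 (29.6 to 35.8), and became so with PGE2, at 29.99 (26.7 to 33.6). Col4a1 and Col4a2 also became higher in both, with Col4a1 at 94.7 (83.7 to 107), 157 (151 to 164) and 253 (244 to 263) for Tbx1neo2/neo2 carrier, minoxidil and PGE2. The unnamed cluster held 9.896 (9.05 to 10.8) CPM of Col4a5 and 108 (106 to 111) of Nid1.

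Sex split the same cells. Among XY cells of the integrated class, Nid1 was 333 (314 to 352) CPM with Tbx1+/+ carrier and 146 (141 to 151) with Tbx1neo2/neo2 carrier, and Col4a5 50.4 (43.2 to 58.4) and 13.3 (11.98 to 14.8). Among XX cells, Nid1 was 332 (307 to 359) and 269 (202 to 352), the latter from 15 cells, and none of the 7 differences was called. Col4a5 was still lower in these cells, 57.2 (47.1 to 68.9) and 20.3 (5.54 to 52.0), but the latter rests on 4 UMIs and the intervals overlapped. Col15a1 went the other way, 3.09 (1.13 to 6.73) and 5.08 (0.129 to 28.3). So few cells cannot show whether the differences are absent in XX cells. Col4a1 was instead called higher in these XX cells, at 52.6 (42.9 to 63.8) and 117 (74.1 to 175). In the Tbx1+/+ carrier library, XX and XY fibroblast-like cells had overlapping intervals for Nid1 and Col4a5. They were apart for Col4a1, which was 73.7 (64.9 to 83.3) in the XY cells. In Tbx1neo2/neo2 carrier pericyte-like cells, Nid1 was 130.5 (113 to 150.0) in XX and 144 (126 to 165) in XY cells, but other genes had intervals apart, Col4a1 with 499 (464 to 536) in XX and 408 (376 to 442) in XY cells and Col4a5 with 7.29 (3.64 to 13.04) and 22.04 (15.2 to 30.95). XX cells alone also gave 3 lower calls for Tbx1neo2/neo2 carrier against Tbx1+/+ carrier that all cells did not give. They were Col4a5 in pericyte-like cells, from 17.4 (13.2 to 22.4), Nid1 in endothelial-like cells, from 122 (105 to 141) to 77.02 (56.4 to 103) in 21 cells, and Lama4 in epithelial-like cells, from 7.21 (6.13 to 8.42) to 3.72 (2.72 to 4.96).

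Beyond the 4 classes, other mesenchymal clusters of the Tbx1neo2/neo2 carrier library were also low in most of these genes. In smooth-muscle-like cells, 81, 306, 45 and 86 cells, Col4a1 stood at 348, 55.9, 409 and 470.5 CPM, Col18a1 at 99.05, 2.91, 86.8 and 62.8 and Nid1 at 172, 93.9, 196 and 139.6. Their Tbx1neo2/neo2 carrier log2 ratios to Tbx1+/+ carrier were -2.64 (-2.85 to -2.43), -5.09 (-5.96 to -4.32) and -0.87 (-1.09 to -0.65). The cells differed in identity too. Pericyte markers summed to 1649.9, 185, 1517 and 1438 CPM in them, smooth muscle markers to 6582, 3713, 7362 and 11810, Rgs5, a mural cell gene, to 1046, 1.94, 822 and 894 and the Hox genes to 57.8, 641, 59.2 and 19.6. Of the Tbx1neo2/neo2 carrier cells with a call, 0 were XX and 215 XY, against 67 and 6 with Tbx1+/+ carrier. Lamb1, at 92.4, 88.4, 87.4 and 95.8, did not follow the others.

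The cluster named chondrocyte-like bore chondrocyte markers in the Tbx1neo2/neo2 carrier library only, with summed levels of 28.3, 1693, 21.1 and 18.4 CPM. It held 151, 966, 74 and 77 cells. Col4a1 was 231, 16.7, 304 and 269 CPM in it, Nid1 312, 41.1, 305 and 336 and Nid2 189, 23.2, 185 and 163, so the Tbx1neo2/neo2 carrier cells with chondrocyte markers had the lowest Col4a1 and Nid2 of the named mesenchymal clusters of that library, and the other 3 libraries are no matched control for them. Cycling mesenchymal cells, 603, 1077, 234 and 193 of them, had 380.3, 126, 371 and 441 CPM of Col4a1, and mesothelial-like cells 78.6, 112, 100.3 and 116. Mesothelial-like cells, only 53 of them from the Tbx1neo2/neo2 carrier library, kept Nid1 at 79.2, 76.1, 69.8 and 81.5 and Lamb1 at 138, 136, 156 and 158. Col15a1 went the other way in the unnamed mesenchymal cluster led by Igfbp5, Col2a1 and Sox9, with 2.17 (1.08 to 3.87) in the Tbx1+/+ carrier and 8.62 (7.07 to 10.4) in the Tbx1neo2/neo2 carrier library, while its intervals overlapped in smooth-muscle-like, chondrocyte-like and cycling cells, and Lama4 overlapped in the unnamed cluster. Hoxc6 stood at 0.271, 56.9, 0.302 and 0.1403 CPM in cycling and 0, 102, 0 and 0 in the unnamed cluster.

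**Figure D3:**
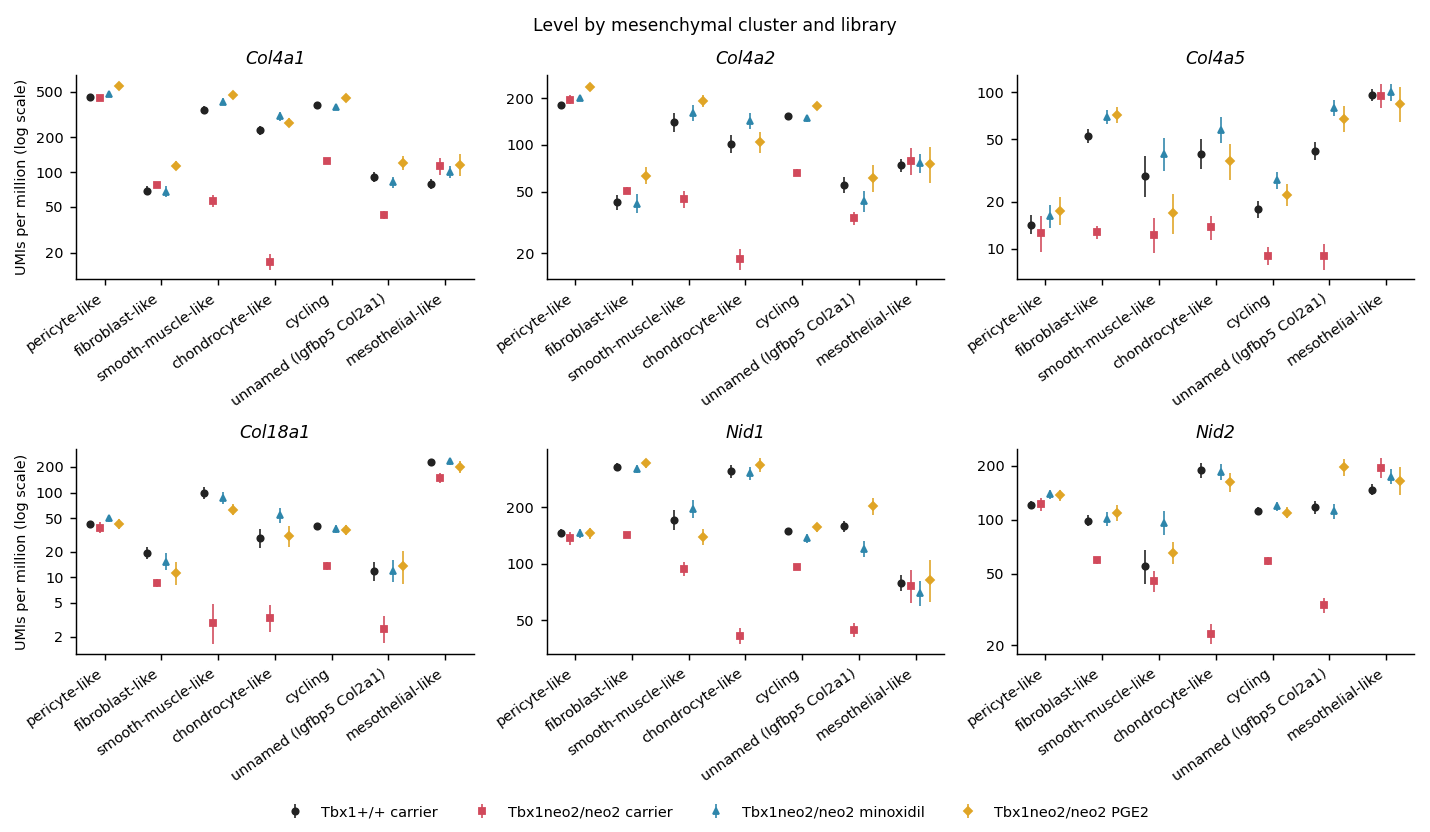
Levels of Col4a1, Col4a2, Col4a5, Col18a1, Nid1 and Nid2 in CPM (log axis) in the mesenchymal clusters of the 4 libraries, with exact Poisson 95% intervals as bars. In pericyte-like cells Col4a1 spans 439.9 to 565, whereas the Tbx1neo2/neo2 carrier points drop in smooth-muscle-like and chondrocyte-like cells, to 55.9 and 16.7 for Col4a1.

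Taken over all mesenchymal cells, 2840, 6138, 989 and 862 of them, most members were lower in the Tbx1neo2/neo2 carrier library, and by less once the shares of the clusters were held fixed. Pericyte-like cells made up 30.4, 4.72, 25.5 and 26.7 percent of mesenchymal cells and fibroblast-like cells 17.1, 38.8, 18.6 and 19.95. Col4a1 fell from 287 (282 to 292) to 95.99 (94.01 to 98.00) CPM, a log2 ratio of -1.58, which became -0.57 when the clusters were weighted by their Tbx1+/+ carrier shares. Col18a1 moved from -2.30 to -0.79 by this weighting and Nid2 from -1.08 to -0.43, while Nid1 kept -0.77 and -0.74. Over the 10 genes the median log2 ratio was -1.11 as measured and -0.50 at Tbx1+/+ carrier shares of 7 clusters. For minoxidil against Tbx1neo2/neo2 carrier it was 1.18 and 0.60, and for PGE2 1.48 and 0.73. With clusters made without integration, the medians at fixed shares were -0.026 for Tbx1neo2/neo2 carrier, 0.085 for minoxidil and 0.37 for PGE2. They cover only 4 clusters, those with at least 20 cells in both libraries and in the Tbx1+/+ carrier library. Left out were mesenchymal clusters of 3584, 993 and 911 Tbx1neo2/neo2 carrier cells, with 4, 0 and 4 Tbx1+/+ carrier cells. These medians therefore do not describe most of the Tbx1neo2/neo2 carrier mesenchyme. Lamb1 changed little in any of these, with -0.089, 0.020 and 0.30 as measured. In XX cells only, the median for Tbx1neo2/neo2 carrier against Tbx1+/+ carrier was -0.16 as measured, and in XY cells only -1.22. A fall in the share of a cluster and a loss of RNA per cell of it are separated here only as far as the clusters match between the libraries.

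**Figure D4:**
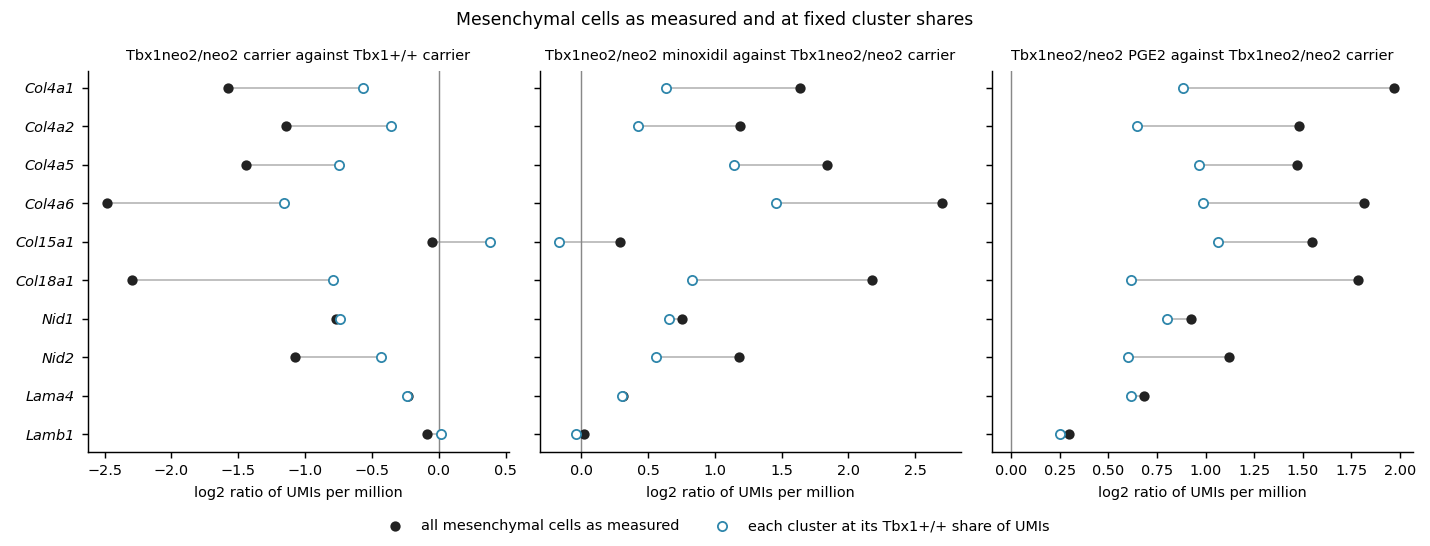
Log2 ratios of the 10 genes over all mesenchymal cells, as measured and with clusters weighted by their Tbx1+/+ carrier shares, for the 3 comparisons. For Tbx1neo2/neo2 carrier against Tbx1+/+ carrier, Col18a1 moves from -2.30 to -0.79 and Col4a1 from -1.58 to -0.57, and Nid1 stays at about the same place.

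Ratios within a pair of partner genes do not depend on depth or on the total of the cells. Their size is not a ratio of molecules, but the same ratio can be set side by side between classes. Col4a1 UMIs per Col4a2 UMI were 2.502, 2.25, 2.397 and 2.41 in pericyte-like cells, 2.08, 2.17, 2.03 and 2.15 in endothelial-like cells, 1.62, 1.51, 1.605 and 1.79 in fibroblast-like cells and 1.13, 1.195, 1.11 and 1.17 in epithelial-like cells. The pair, although transcribed from 1 shared start region, was not counted at 1 fixed ratio, and the pericyte-like and epithelial-like intervals were apart in each library, for example 2.502 (2.39 to 2.62) and 1.13 (1.102 to 1.16) with Tbx1+/+ carrier. In smooth-muscle-like cells the ratio was 2.48, 1.25, 2.54 and 2.45, and the Tbx1neo2/neo2 carrier interval, 1.25 (1.05 to 1.496), overlapped that of fibroblast-like cells of the same library, 1.51 (1.42 to 1.604), and not that of pericyte-like cells, 2.25 (2.08 to 2.43). The chondrocyte-like cluster gave 2.27, 0.9096, 2.13 and 2.598.

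Nid1 UMIs per Nid2 UMI were 3.34, 2.39, 3.19 and 3.15 in fibroblast-like cells and 1.21, 1.12, 1.05 and 1.06 in pericyte-like cells. The fibroblast-like interval of the Tbx1neo2/neo2 carrier library, 2.39 (2.27 to 2.51), lay below those of the others, of which the nearest was 3.15 (2.81 to 3.52) with PGE2. In mesothelial-like cells the ratio was lower, 0.536, 0.391, 0.400 and 0.492. Col4a5 UMIs per Col4a6 UMI were 5.19, 4.48, 4.34 and 4.42 in epithelial-like cells and 7.07, 10.2, 6.97 and 6.40 in mesothelial-like cells, against 18.1, 30.4, 15.5 and 54.0 in fibroblast-like cells, where Col4a6 counts were low.

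**Figure D5:**
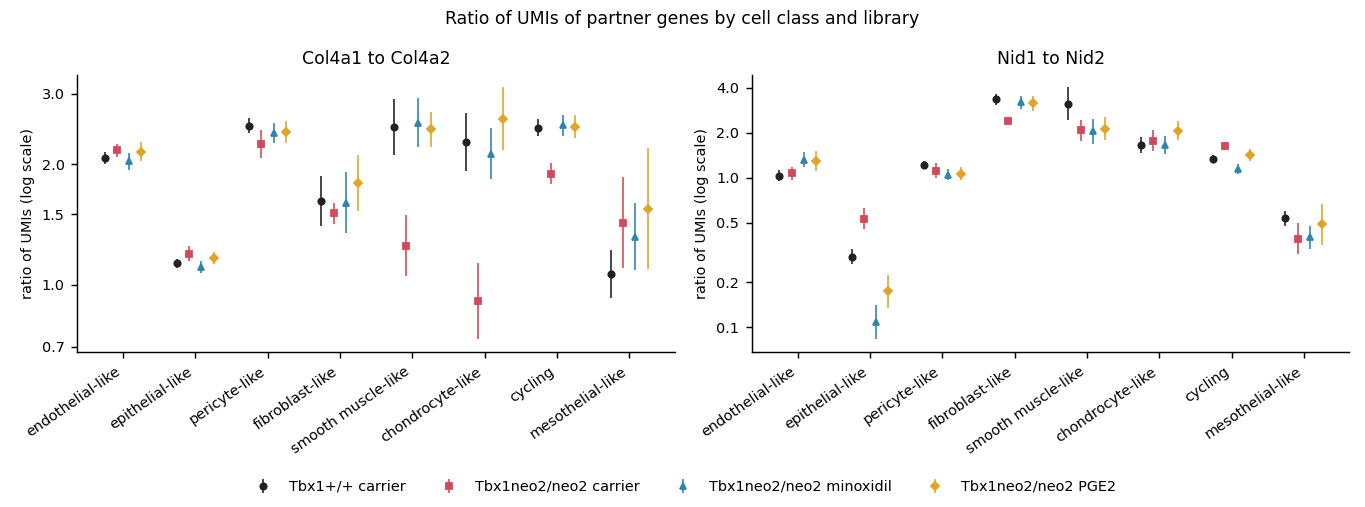
Ratios of UMIs of partner genes (Col4a1 to Col4a2 and Nid1 to Nid2, log axes) by cell class and library, with exact binomial intervals. Col4a1 to Col4a2 lies above 2 in pericyte-like and endothelial-like cells and near 1 in epithelial-like cells in the 4 libraries, and the Tbx1neo2/neo2 carrier point of smooth-muscle-like cells stands below the other 3.

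The share of cells with a UMI was compared after each cell was thinned to 5000 UMIs, which left out 1, 15, 1 and 4 pericyte-like, 3, 20, 5 and 3 fibroblast-like, 12, 61, 16 and 33 endothelial-like and 32, 70, 9 and 19 epithelial-like cells. Col4a1 was then found in 77.5, 77.5, 81.3 and 84.96 percent of pericyte-like, 89.9, 97.8, 82.7 and 80.3 of endothelial-like, 41.6, 42.3, 44.3 and 44.1 of epithelial-like and 3.17, 2.703, 2.05 and 1.13 of hematopoietic cells. Nid1 was found in 73.7% (69.5 to 77.6) of Tbx1+/+ carrier and 45.2% (43.2 to 47.3) of Tbx1neo2/neo2 carrier fibroblast-like cells, and in 69.8% (62.5 to 76.5) and 77.5% (70.5 to 83.6) with minoxidil and PGE2. Without thinning these shares were 91.6, 73.3, 94.6 and 98.8 percent. Col4a5 was found in 21.1, 5.47, 30.7 and 27.8 percent of fibroblast-like and 0.7599, 0.416, 0.4399 and 0.0871 of hematopoietic cells, or 43.8, 14.7, 67.9 and 62.2 and 4.06, 3.13, 3.76 and 0.922 without thinning. For Nid1 in epithelial-like cells, 1.15, 2.54, 0.619 and 0.404 percent of cells had a UMI, against 1.52, 2.599, 0.587 and 0.871 of hematopoietic cells at the same depth, and this is read as background. Col15a1 in pericyte-like cells went from 2.91% (1.26 to 5.65) with carrier to 10.6% (6.92 to 15.4) with PGE2.

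Other genes of the basement membrane, taken as whole lists, were counted in the same way for Tbx1neo2/neo2 carrier against Tbx1+/+ carrier. The genes named below had the largest or smallest ratio of their list among those at 50 CPM or more, so they are extremes. In pericyte-like cells, the other type IV and laminin chains were 0 of 4 higher and 0 lower, the other components 2 of 13 higher and 1 lower, the receptors 0 of 12 higher and 0 lower, and the genes for assembly and turnover 1 of 16 higher and 0 lower, where 1.93% of all genes were higher and 2.22% lower. In fibroblast-like cells, the chains were 1 of 9 higher and 3 lower, the components 3 of 19 higher and 9 lower, the receptors 2 of 13 higher and 3 lower, and assembly and turnover 3 of 16 higher and 1 lower. Of all genes, 7.51% were higher and 10.3% lower there. Lamc1, the gamma chain of most laminins, went from 66.1 to 40.04 CPM in fibroblast-like cells, and Fras1, which anchors epithelia to mesenchyme, from 60.00 to 14.5. Timp3, an inhibitor of metalloproteinases bound to the matrix, went the other way, from 37.3 to 94.1, while Adamts1, a metalloproteinase, went from 224 to 103. Among receptors, Ddr2, which binds collagen, went from 91.9 to 103 and Dag1, which binds laminin, from 50.05 to 43.3, both short of 1.5-fold. These fibroblast-like values rest on the same Tbx1neo2/neo2 carrier cells as those of the members.

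The drug libraries were set beside the Tbx1neo2/neo2 carrier library in the same way, and a part of the lists and classes is given. In fibroblast-like cells, the components were 8 of 19 higher and 2 lower with minoxidil and 8 of 19 higher and 1 lower with PGE2, and the genes for assembly and turnover 1 of 16 higher and 4 lower and 2 of 16 higher and 4 lower. The chains were 3 of 9 higher and 0 lower with minoxidil and 5 of 9 higher and 1 lower with PGE2. The receptors were 2 of 13 higher and 2 lower with minoxidil and 4 of 13 higher and 0 lower with PGE2. Of all genes, 11.1% were higher and 7.14% lower there with minoxidil, and 9.96% and 6.03% with PGE2. Fras1 went from 14.5 to 61.1 CPM with minoxidil, and Timp3 from 94.1 to 30.9 with minoxidil and from 94.1 to 35.01 with PGE2. In endothelial-like cells, the components were 2 of 14 higher and 0 lower with minoxidil, where 4.77% and 4.03% of all genes were, and 4 of 15 higher and 1 lower with PGE2, where 5.45% and 4.9% were. Fbln2, a fibulin found around vessels, had the largest ratio in both, from 27.2 to 179 with minoxidil and from 27.2 to 229 with PGE2. The sum of the smooth muscle markers was also higher in these cells while Acta2 was lower, as given above, and their part in the Fbln2 value was not tested. Without integration, a separate endothelial cluster led by Eln, a smooth muscle marker here, Fbln5 and Tm4sf1 held 11, 1, 17 and 9 cells. Its part was not tested either. In epithelial-like cells, the components were 0 of 20 higher and 4 lower with minoxidil, where 4.01% and 5.06% of all genes were. With PGE2 they were 0 of 20 higher and 5 lower, where 3.37% and 5.83% were. Sparc, a collagen-binding protein made mainly by mesenchyme, went from 169 to 83.1 and 169 to 88.1 there, with the mesenchymal markers in those cells as given above.

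Likeness to Col4a1 was described over 20 profiles, those of the 4 classes and of hematopoietic cells in each library, as Pearson's r of log2(CPM + 1). A limit of 50 CPM in any profile, which 5057 genes passed, was set on genes outside the list and not on the members. The value for Col4a6 rests on low counts. Col4a2 led with 0.991. Of the members, Lamb1 followed with 0.845, Lama4 with 0.828 and Nid2 with 0.79, then Col15a1 with 0.693, Col18a1 with 0.663, Nid1 with 0.566, Col4a5 with 0.38 and Col4a6 with 0.162. Outside the list, the closest were Unc5b, a netrin receptor of endothelial cells, with 0.985, Tubb6, a tubulin, with 0.973, Fgd5, an endothelial exchange factor, with 0.972, Ppp2r2a, a phosphatase subunit, with 0.970, and Mfge8, a secreted milk-fat-globule protein, with 0.969. The 4 profiles of a class share its markers and are not independent, so r is a description.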

How the data were processed

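Single-cell RNA libraries (10x Genomics) of thymic lobes from 4 groups, 1 library each, were analysed. The authors deposited 1 matrix of UMI counts per library, 27998 genes by cell, made with Cell Ranger 5.0.1 on mm10, and the deposited counts were neither normalised nor corrected. The number of embryos per library is not given in the sources used here. No column of other samples was present (0).

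Cells were kept from 200 genes upward if mitochondrial genes held no more than 10% of their UMIs, a limit set here since the study names none. Libraries were integrated with Seurat 5.3.0 anchors (R 4.3.3, 2000 variable genes, 30 dimensions, resolution 0.3), with the members, the other lists, all Col genes and the sex genes, 115 in all, barred from the variable genes. The 23 clusters were named from marker lists at a broad score of at least 1 and at least 3 markers found in 10% of cells. Doublets were called with Scrublet (scanpy 1.11.5) and left in the main values; it called 0 of 10683 cells in the Tbx1neo2/neo2 carrier library, where it did not work, and 567, 70 and 75 in the others.

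UMIs were summed per class and library and given as counts-per-million (CPM) of the class, with exact Poisson 95% intervals, which cover counting error only. Ratios were called at 1.5-fold with intervals apart and at least 20 UMIs, with a count of 0 set at a floor of 3 counts. With 1 library per group no test was run and no p-value is given. Depths were 292687940, 194023208, 151740600 and 156363845 UMIs. Data were simulated from the real class totals for Tbx1neo2/neo2 carrier against Tbx1+/+ carrier, with 11963 genes counted in pericyte-like and 13806 in fibroblast-like cells. Of 50 genes per class raised 2-fold, the call found 80% in pericyte-like and 90% in fibroblast-like cells. Of 49 genes per class lowered to a fold of 0.5, it found 73.5% and 81.6%. Members, lists and the rule for named genes were chosen with earlier results of these data known. All members are named; of each other list, only the genes with the largest and smallest ratio at 50 CPM or more; and the 5 genes most like Col4a1. Calculations used numpy 2.4.6, scipy 1.17.1 and pandas 2.3.3, and edgeR 4.0.16 for TMM factors. Alternatives to the filter, resolution, integration, class assignment, sex, scaling, background, fold and minimum were computed.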

Additional observations from a re-analysis of the deposited data

How the results depend on the processing

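No paired analysis was possible because each group is 1 library, and leaving out a replicate would leave none. Calls are counted here over 40 pairs of gene and class. The share of all genes called was counted with the main settings only. The counts under other settings therefore show how the calls of members moved and are not results about the members. As reported, 7 pairs were lower and 1 higher for Tbx1neo2/neo2 carrier against Tbx1+/+ carrier, 1 lower and 7 higher for minoxidil against Tbx1neo2/neo2 carrier, and 2 lower and 7 higher for PGE2 against Tbx1neo2/neo2 carrier. The first of these comparisons is called genotype below as a name only, without assigning its differences to the allele. Over all mesenchymal cells, the median log2 ratio of the members was -1.11, 1.18 and 1.48 as measured and -0.50, 0.60 and 0.73 at Tbx1+/+ carrier cluster shares.

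With at most 5% mitochondrial UMIs, 4 pairs were lower for the genotype comparison, 2 lower and 4 higher for minoxidil and 1 lower for PGE2, with medians of -1.05 and -0.40 for genotype and 1.12 and 0.48 for minoxidil. Without integration, 1 pair was lower for genotype, and 2 lower and 3 higher for minoxidil. Col4a1 in endothelial-like cells was among the pairs added for minoxidil. The medians at Tbx1+/+ carrier shares were then -0.026, 0.085 and 0.37, over 4 clusters that leave out most Tbx1neo2/neo2 carrier mesenchymal cells. In fibroblast-like cells Col4a5 turned to 0.12 and Col15a1 to 1.22 for genotype, and Col15a1 to -0.76 and Nid1 to -0.033 for minoxidil. Nid1 in epithelial-like cells turned to -0.098 for genotype. With classes set by the markers of each cell, which left as few as 11 cells in a class, 15 pairs were lower and 6 higher for genotype, 6 and 13 for minoxidil, and 6 and 11 for PGE2. Most added pairs lay in pericyte-like and endothelial-like cells. In pericyte-like cells they were Col4a1, Col18a1, Nid1, Nid2 and Lama4 for minoxidil and Col4a1, Col4a2 and Lamb1 for PGE2. In endothelial-like cells they were Col4a1, Col4a2, Col15a1, Col18a1, Nid1 and Lama4 for minoxidil and Col4a1, Col4a2 and Col15a1 for PGE2. Those for genotype are named above. Col15a1 in fibroblast-like cells turned to 0.35 for genotype and Nid1 in epithelial-like cells to 0.34 for minoxidil.

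XX cells gave 3 lower pairs for genotype, none of them among the 7 of all cells, and Col4a1 in fibroblast-like cells as higher. They gave 2 lower and 4 higher for minoxidil, of which Col4a5 in fibroblast-like cells and Nid1 in epithelial-like cells were calls of all cells. Their medians were -0.16 and -0.13 for genotype and 0.034 and 0.033 for minoxidil, and in fibroblast-like cells Col15a1 turned to 0.72 for genotype and to -0.031 for minoxidil, and Lama4 to -0.0097 for minoxidil. XY cells gave medians of -1.22 as measured for genotype and 0.88 at shares for PGE2. XX cells could not be compared for PGE2, nor XY cells for minoxidil. Without doublets and cells with markers of another class, only 1, 24, 4 and 5 endothelial-like cells were left. Calls were therefore followed over 30 pairs in the other classes. For genotype 5 of 8 were kept, without Col15a1 and Lama4 in fibroblast-like and Nid1 in epithelial-like cells. For minoxidil 4 of 8 were kept, without Col4a6, Col18a1 and Lama4 in fibroblast-like and Nid1 in epithelial-like cells. For PGE2 6 of 8 were kept, without Nid1 and Nid2 in epithelial-like cells. In fibroblast-like cells Lamb1 was added for minoxidil and Col4a1 and Col4a2 for PGE2. The median was then -1.23 for genotype as measured and 0.51 for minoxidil at shares, and Nid1 in epithelial-like cells turned to -0.54, 0.081 and 0.14 in the 3 comparisons. With narrower marker lists, chosen after seeing the data, 2 pairs were higher for genotype and 5 lower for minoxidil, with medians of -1.18 and -0.60 for genotype and 0.67 at shares for minoxidil. The added pairs of these comparisons lay in endothelial-like cells, Col4a1 and Nid2 for genotype and Col4a1, Col4a2, Col15a1 and Nid2 for minoxidil.

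As a mean over cells, 2 pairs were higher for genotype, 5 lower for minoxidil and 6 lower for PGE2, with medians of -1.21 for genotype and 1.26 for minoxidil. Pairs added in endothelial-like cells were Col4a5 for genotype, Col4a1, Col4a2, Col4a5 and Lama4 for minoxidil and Col4a1, Col15a1 and Nid2 for PGE2. With the hematopoietic level subtracted, 0 pairs were higher for genotype, 0 lower for minoxidil and 0 lower for PGE2. The medians were then -1.24 for genotype, 1.34 and 0.66 for minoxidil and 1.65 and 0.93 for PGE2, and Nid2 in epithelial-like cells turned to 0.26 for PGE2. With a fold of 2, 0 pairs were higher for genotype, 4 higher for minoxidil and 1 lower for PGE2. Resolution 0.6 and no minimum of UMIs changed no call of a member, and TMM scaling lost only Lama4 in fibroblast-like cells for genotype. The causes of these shifts were not tested. The spread between embryos is unknown, and Col4a6 outside epithelial-like and mesothelial-like cells is too low for these depths to show less than large differences.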
